A study of Mus musculus with 21 samples.

Results

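The 93 zinc finger genes described here are those of the 5544 genes in the deposited table whose GENCODE symbol begins with Zfp or Zbtb followed by a digit, or with Zkscan or Zscan. They comprised 75 Zfp, 13 Zbtb, 4 Zkscan genes and 1 Zscan gene, and all of them were protein-coding. Cortex was taken from male C57BL/6 mice, labelled WT (wild type) and aged 12 weeks in the labels. It was taken 24 h after the final session of high-frequency head impact (HF-HI) or of a sham procedure. HF-HI mice received repeated head impacts on successive days under isoflurane. The sham procedure left out the impacts only, so both groups were handled and given isoflurane. Ribosome-depleted, stranded total RNA gave one library per mouse from 10 sham and 11 HF-HI mice. Each value is a variance-stabilized read count on a log2 scale, made by the authors with DESeq2, so that a difference of groups is a log2 difference that is compressed for genes with few reads. Since the samples were whole cortex, a lower value may come from fewer cells that contain a transcript or from less RNA per cell, and these cannot be told apart.

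Most of these genes encode proteins with C2H2 zinc fingers, in which a pair of cysteines and a pair of histidines hold a zinc ion and the residues between them contact DNA. KRAB zinc finger proteins carry a KRAB domain that recruits Trim28 (Kap1) and the histone methyltransferase Setdb1 and silences chromatin, above all at transposable elements. Zbtb proteins carry a BTB domain, which forms dimers and binds corepressor complexes, and SCAN domains in the Zkscan and Zscan proteins join family members to each other. Not every member is a sequence-specific transcription factor. Zfp106 and Zfp638 bind RNA or matrix-associated nucleic acid, Zfp207 acts at kinetochores, Zfp326 takes part in splicing, and Zfp365 had 0 fingers by the pattern used here, although its symbol meets the rule.

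Zinc finger coding sequences differ in base composition, and GC content is followed through the comparisons. The sequences are the first finger of 21 codons within 1 exon (for Zfp609, its only finger) in each of the 4 members with the largest decrease and the 4 with the largest increase, from the longest coding transcript in GENCODE on GRCm38, written 5' to 3' in the coding sense. Capitals mark the codons of the pair of cysteines and the pair of histidines, and the lower-case bases between them encode the turn and the helix that meets DNA.
Zfp81: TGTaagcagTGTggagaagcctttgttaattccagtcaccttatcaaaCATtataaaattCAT
Zfp941: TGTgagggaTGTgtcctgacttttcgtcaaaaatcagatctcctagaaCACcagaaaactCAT
Zfp788: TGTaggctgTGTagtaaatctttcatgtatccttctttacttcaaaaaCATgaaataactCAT
Zfp664: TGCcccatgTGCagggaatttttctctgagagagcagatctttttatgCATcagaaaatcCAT
Zfp462: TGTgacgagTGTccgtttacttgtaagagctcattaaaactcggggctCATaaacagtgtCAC
Zfp609: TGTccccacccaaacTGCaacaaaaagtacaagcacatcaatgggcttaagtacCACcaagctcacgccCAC
Zbtb16: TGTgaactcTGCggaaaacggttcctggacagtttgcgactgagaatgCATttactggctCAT
Zbtb7a: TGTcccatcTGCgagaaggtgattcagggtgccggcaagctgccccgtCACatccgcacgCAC

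The fingers of the members that fell are at chr17:33335107-33335169, minus strand (Zfp81), chr7:140812362-140812424, minus strand (Zfp941), chr7:41648659-41648721, plus strand (Zfp788) and chr5:124885556-124885618, plus strand (Zfp664). Their GC content was 33.3%, 41.3%, 30.2% and 41.3%, in the same order. Those of the members that rose are at chr4:55009452-55009514, plus strand (Zfp462), chr9:65704120-65704191, minus strand (Zfp609), chr9:48743468-48743530, minus strand (Zbtb16) and chr10:81145105-81145167, plus strand (Zbtb7a). Their GC content was 44.4%, 50%, 47.6% and 63.5%. All 8 lie in coding exons. Each printed finger of the 4 members that fell held less G and C than each printed finger of the 4 that rose. Over all fingers of a member, GC content had a median of 42.4% in the 56 members that were lower in HF-HI and 52.9% in the 16 higher members that have a finger.

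Most zinc finger genes were lower after HF-HI. At an adjusted p under 0.05 (limma across all 5544 genes, Benjamini-Hochberg), 56 of the 93 members (60.2%) were lower and 17 (18.3%) were higher in HF-HI than in sham, and 20 did not pass. Over all genes tested, 33.6% were lower and 32.6% were higher, so that 66.3% passed in either direction, against 73 of the 93 members. Most of these differences were under 0.25 in size, and with that minimum added, 19 members were lower and 10 higher, against 8.04% and 17.8% of all genes. With libraries centred on their medians, which moved the median difference of all genes to -0.061, 64 members were lower and 13 higher, against 42.9% and 26.1% of all genes. Quantile normalization gave 64 and 14, against 40.4% and 27.9%. The median difference of the members was -0.14 on the log2 scale, against -0.0087 for all genes. Single members ran from -0.34 for Zfp81 to 0.81 for Zbtb7a, and the 5 members farthest from 0 were all increases. No overlap between sham and HF-HI values was seen in 18 members. In 13 of them every HF-HI mouse lay below every sham mouse, a pattern found in 4.76% of all genes, and in 5 every HF-HI mouse lay above, against 8.71% of all genes. Between mice of a group, the members had a median SD of 0.094 in sham and 0.080 in HF-HI, against 0.11 and 0.092 for all genes.

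**Figure D1:**
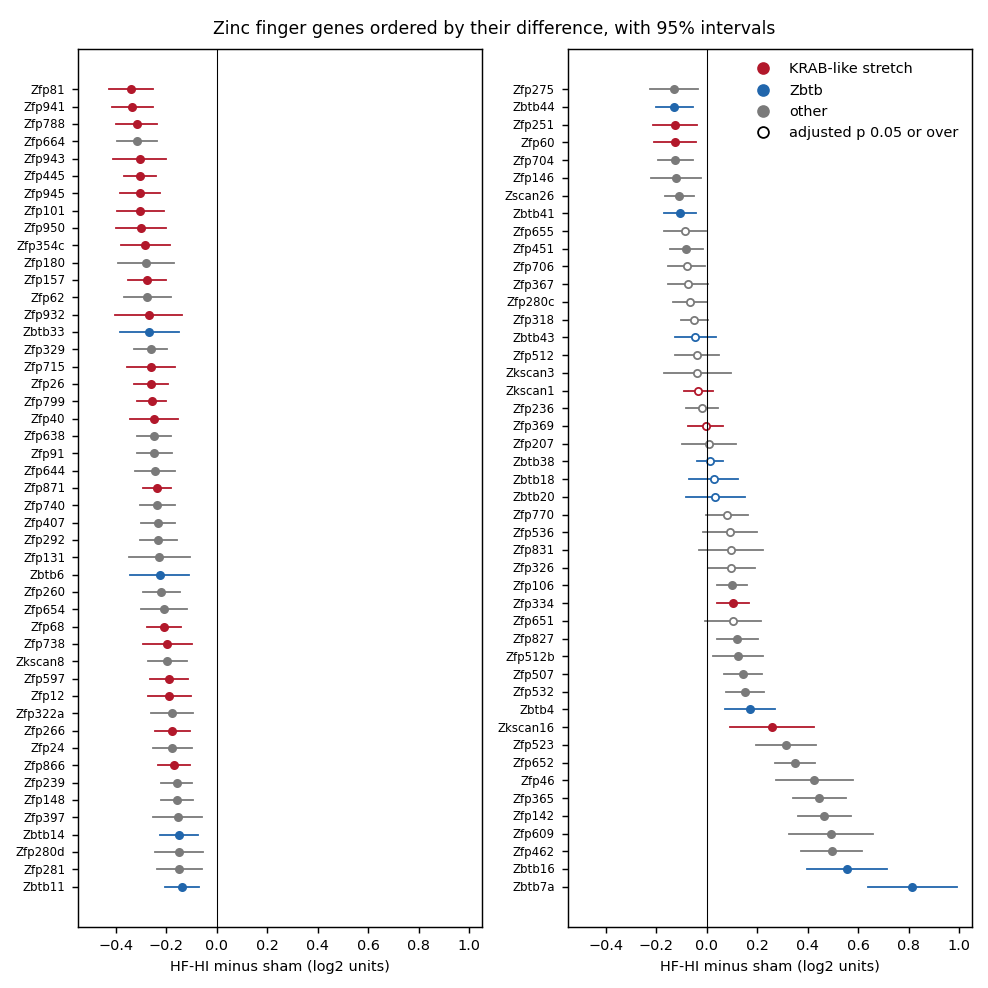
Difference between HF-HI and sham means (points, log2 units, x axis) and its 95% confidence interval (lines) for each of the 93 zinc finger genes (y axis), ordered from the lowest to the highest and coloured by class. Filled points had an adjusted p under 0.05, and 56 of them lie below 0 and 17 above it, with Zbtb7a at 0.81 farthest from 0.

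The table's genes differ in base composition, and in these libraries the group difference followed it. Exonic GC content, taken over the union of a gene's exons, had a median of 43.1% in the members and 47.6% in all genes. The members spanned 35.7% in Zfp943 to 58.5% in Zfp651. A curve of value against GC content was therefore fitted in each library over all genes and subtracted, and the comparison was repeated. What the subtraction removed is called the part that follows GC content. This part would also hold any response to HF-HI that happens to follow GC content, and the data cannot tell the kinds apart.

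Once the GC trend was removed, 39 members (41.9%) were lower, 14 (15.1%) were higher and 40 did not pass, against 31.0% lower and 29.2% higher over all genes. With the minimum size of 0.25 added the order turned, and 9 members were higher and 4 lower, against 12.7% and 8.11% of all genes. The median difference of the members went from -0.14 to -0.063, against -0.0096 for all genes. Of the 56 lower members, 37 stayed lower and 19 no longer passed. Among the 17 higher members, 11 stayed higher and 6 no longer passed. None passed in the opposite direction, although the sign turned in 11 members, of which Zfp280d, Zbtb41 and Zfp451 had passed as lower and Zfp512b as higher. Zfp207, Zfp326 and Zfp770 passed as higher and Zfp236 and Zfp651 as lower only after removal. The groups then stood apart in 7 members with HF-HI below, against 5.24% of all genes, and in 5 with HF-HI above, against 7.49%. In the 56 lower members the part that follows GC content made up a median of 49.3% of the difference, and it was over 50% of it in 27. In the 17 higher members its median was 20%, and it was over 50% in 4 of them. With the trend taken instead on GC content of the longest protein-coding transcript, 36 members were lower and 21 higher, with a median of -0.048. The share of all genes under that setting is not given.

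**Figure D2:**
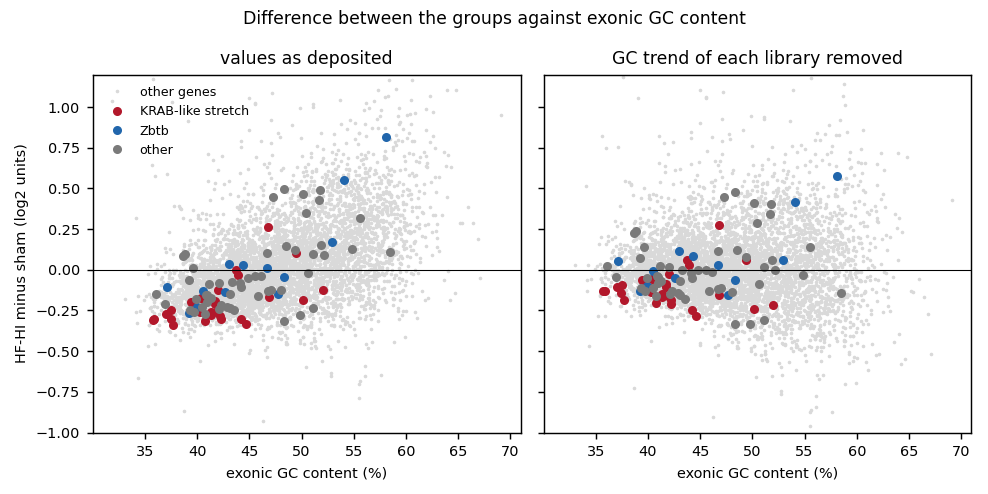
Difference between HF-HI and sham (log2 units, y axis) against exonic GC content in percent (x axis) for zinc finger genes by class (coloured points) and all other genes (grey points), with the values as deposited on the left and with each library's GC trend removed on the right. The members rise from lower left to upper right on the left, with a rank correlation of 0.60 across the 93 genes, and less on the right, at 0.21. The y axis leaves out 16 genes on the left and 13 on the right, none of them a zinc finger gene.

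Split into 3 groups of 31 by exonic GC content, the members that were lower lay mostly in the GC-poor and middle groups and those that were higher in the GC-rich group, as genes of like GC content did over the whole table. Of the 31 with the least GC, 26 were lower and 0 higher, with a median difference of -0.21, while 61.8% of all genes in the same GC range were lower and 7.23% higher. The middle 31 held 20 lower genes and 1 higher gene (Zfp106), with a median of -0.15, against 46.0% and 16.9% of all genes in that range. The 31 richest in GC held 16 higher and 10 lower genes, with a median of 0.11, against 45.8% and 20.6%. Centred libraries gave this group 13 higher and 12 lower, with a median of 0.0545, against 26.1% and 42.9% over the whole table. Quantile normalization also gave 13 and 12, against 27.9% and 40.4%. After the GC trend was removed, the counts lower and higher were 12 and 3 in the GC-poor group, 15 and 1 in the middle group, and 12 and 10 in the GC-rich group. Over all genes of these ranges 25.4%, 30.9% and 32.2% were then lower and 24.2%, 25.9% and 32.1% higher. The counts of lower genes were then much the same in the 3 groups, while 10 of the 14 higher genes still lay in the GC-rich group.

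Across the 93 members, the difference rose with exonic GC content (Spearman's rho 0.60), with GC content of the coding sequence (0.68) and with GC at the third base of codons (0.62). Over all 5539 genes with a GC content the same rho was 0.48. GC content of the promoter, known for 75 members from RefSeq, went with it less (0.25), and longer exonic length went weakly with a higher difference (0.18). Members with more fingers had lower differences (rho -0.36, and -0.32 after removal of the GC trend). These genes share libraries and families, and no test was attached to the correlations. After the trend in exonic GC was removed, rho was still 0.36 with coding GC content and 0.21 with exonic GC content, so a slope remained within the members.

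The slope was also seen mouse by mouse. Per 10% of GC content, a member's deviation from its mean over all mice changed by -0.26 to -0.026 (median -0.16) in the 10 sham libraries and by 0.048 to 0.22 (median 0.14) in the 11 HF-HI libraries. The groups did not overlap, and every HF-HI slope was higher than every sham slope. Since deviations are taken from the mean over all mice, the opposite signs follow from the centring, and only the gap between the groups is a measurement. After removal the slopes were smaller, from -0.0995 to -0.034 in sham and from 0.019 to 0.091 in HF-HI, and still did not overlap. The same slope over all genes ran from -0.23 to 0.0058 in sham and from -0.039 to 0.16 in HF-HI, where the groups overlapped. The mean deviation of the 93 members was -0.010 to 0.074 in sham and -0.051 to -0.00048 in HF-HI, which overlapped slightly, and removal of the trend brought the groups closer.

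**Figure D3:**
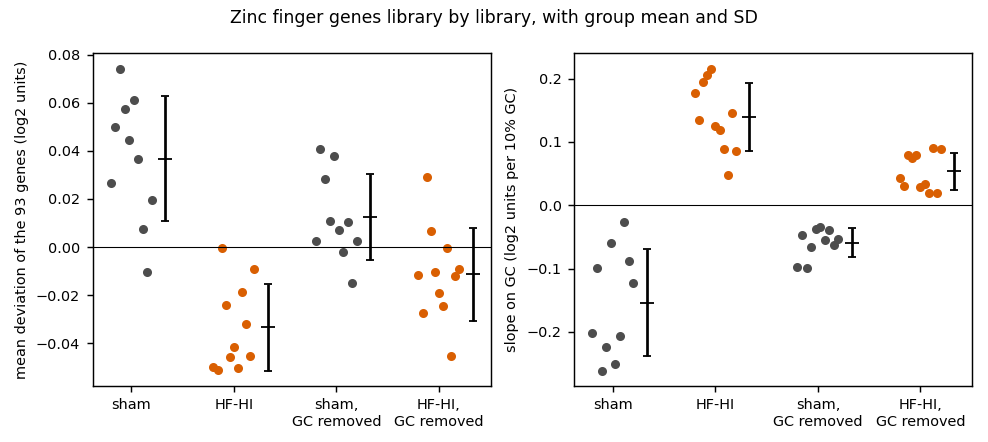
Mean deviation of the 93 zinc finger genes from their means over all mice (left, log2 units) and slope of those deviations on exonic GC content (right, log2 units per 10% GC), with one point per library and the group mean and SD beside them, before and after removal of each library's GC trend. In the right panel all 11 HF-HI slopes lie above all 10 sham slopes, both before and after removal.

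KRAB zinc finger genes made up 9 of the 10 largest decreases. A stretch like the KRAB A-box, with at least 8 of 15 consensus residues, was found in the coding sequence of 28 members, and a member without it may still carry a divergent KRAB domain. Of the 28, 24 were lower (85.7%) and 2 higher (Zfp334 and Zkscan16), against 33.6% and 32.6% of all genes. Zkscan1 and Zfp369 did not pass. The median difference of the 28 was -0.25, against -0.080 for the 65 other members. Of these 65, 32 were lower (49.2%) and 15 higher (23.1%). Exonic GC content of the 28 was low, with a median of 41.7% against 44.3% in the other members. They held a median of 12 fingers against 7. Once the GC trend was removed, 19 of the 28 (67.9%) were lower and 1 was higher, with a median of -0.13. Among the 65 others 20 were lower (30.8%) and 13 higher (20%), with a median of -0.021. Over all genes 31.0% were then lower and 29.2% higher. The 5 KRAB-like genes that no longer passed as lower were Zfp932, Zfp40, Zfp738, Zfp266 and Zfp60.

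**Figure D4:**
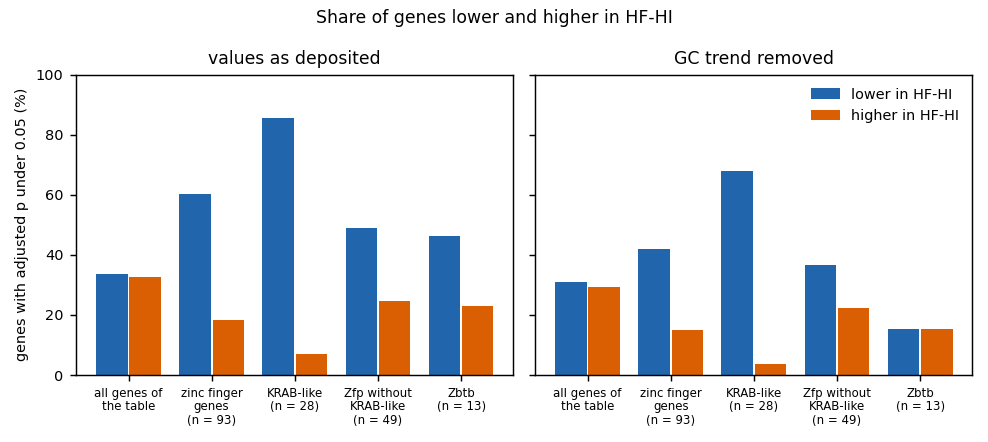
Percentage of genes (y axis) lower (blue) or higher (orange) in HF-HI at an adjusted p under 0.05, for all genes of the table, all zinc finger genes, those with a KRAB-like stretch, Zfp genes without one, and Zbtb genes, with deposited values on the left and GC-corrected values on the right. The KRAB-like genes have the tallest lower bars, 85.7% on the left and 67.9% on the right, against 33.6% and 31.0% of all genes.

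Zfp81 (ENSMUSG00000003929, chr17:33329342-33358878, exonic GC 37.7%, 11 fingers) had the largest decrease of the members. Its value was 9.0 to 9.38 (median 9.18) in sham and 8.71 to 8.92 (median 8.84) in HF-HI, and no HF-HI mouse reached the lowest sham mouse. The difference was -0.34 ± 0.042 (SE, adjusted p = 4.52e-07, limma), of which -0.15 followed GC content and -0.18 remained (adjusted p = 8.84e-05). After removal of the GC trend the groups overlapped. Its neighbour Zfp101, on the same strand of chromosome 17, was 8.52 to 8.92 (median 8.80) in sham and 8.35 to 8.55 (median 8.46) in HF-HI. These ranges overlapped narrowly, with a difference of -0.30 ± 0.046 (SE, adjusted p = 5.46e-06).

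Chromosome 17 carried 7 of the KRAB-like members, more than any other chromosome. All 7 were lower, from -0.34 to -0.24, where 33.6% of all genes were lower. These 7 were poor in GC, at 35.7% to 42.3%, and 61.8% of all genes at 35.7% to 41.3% GC were lower. Besides Zfp81 and Zfp101 the 7 were Zfp943, Zfp945, Zfp40, Zfp871 and Zfp799. Zfp943, the member with the least exonic GC, was 8.55 to 8.92 (median 8.74) in sham and 8.28 to 8.66 (median 8.42) in HF-HI, so the ranges overlapped. Its difference was -0.31 ± 0.051 (SE, adjusted p = 1.81e-05), and -0.13 remained after the GC trend was removed. Zfp945, at 35.9% GC, gave -0.30 ± 0.038 and -0.13 after removal. Of the 7, 6 still passed as lower after removal, against 31.0% of all genes, and Zfp40 did not. The other members on this chromosome were Zfp318, Zbtb14 and Zfp523, of which Zfp523 was higher. KRAB zinc finger genes lie in clusters of related copies, and reads that match several copies may have been divided between them in the authors' counting, so the value of any single copy is uncertain.

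Chromosome 5 carried 5 KRAB-like members, of which 4 were lower (Zfp157, Zfp932, Zfp68 and Zfp12) and Zkscan1 did not pass. After removal of the GC trend 3 of them were lower. For this chromosome and chromosome 7, the shares over all genes were 33.6% lower, and 31.0% after removal. On chromosome 7 all 4 KRAB-like members were lower, among them Zfp788 and Zfp941. After removal of the GC trend 3 of the 4 were lower, and Zfp60 did not pass. Zfp788, with 23 fingers, was 9.29 to 9.55 (median 9.42) in sham and 8.91 to 9.24 (median 9.13) in HF-HI, without overlap. Its difference was -0.32 ± 0.039 (SE, adjusted p = 4.13e-07) and -0.20 after removal of the GC trend, when the groups overlapped. Zfp941 was 8.98 to 9.23 (median 9.14) in sham and 8.71 to 8.99 (median 8.77) in HF-HI, and the groups overlapped through 1 sham mouse, whose value was lower than the highest HF-HI value. Only -0.049 of its difference of -0.33 ± 0.039 (SE, adjusted p = 1.48e-07) followed GC content, and after removal the groups no longer overlapped.

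Zfp445, a KRAB zinc finger protein that maintains methylation at imprinted loci, was 10.17 to 10.37 (median 10.25) in sham and 9.84 to 10.01 (median 9.95) in HF-HI. Every HF-HI mouse lay below every sham mouse. The difference of -0.30 ± 0.031 (SE) had the lowest adjusted p among the lower members (2.32e-08), and -0.25 remained after removal, again without overlap. Zfp950 differed by -0.30 ± 0.048 and Zfp354c by -0.28 ± 0.047, with -0.14 and -0.19 left after removal. The remaining lower KRAB-like genes ran from -0.28 in Zfp157 to -0.12 in Zfp60.

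A few lower members were rich in GC, so that the removal made their decrease larger. Zfp664, which has 9 fingers and no KRAB-like stretch, was 10.09 to 10.28 (median 10.21) in sham and 9.71 to 10.05 (median 9.87) in HF-HI, without overlap. Its difference was -0.32 ± 0.039 (SE, adjusted p = 3.36e-07) and -0.34 after removal, which made it the lowest member on that scale. Zfp740, at 51.1% GC, went from -0.24 to -0.31 and did not overlap between the groups on either scale. Zfp180 went from -0.28 to -0.33, and the KRAB-like Zfp12 and Zfp251 from -0.19 to -0.24 and from -0.13 to -0.22. In 7 of the 56 lower members, these 5 with Zfp704 and Zbtb14, the part that follows GC content pointed against the difference.

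Of the 13 Zbtb genes, 3 were higher (23.1%), 6 were lower (46.2%: Zbtb33, Zbtb6, Zbtb14, Zbtb11, Zbtb44 and Zbtb41) and 4 did not pass, with a median of -0.044. The shares over all genes were 32.6% higher and 33.6% lower. With centred libraries 3 were higher and 7 lower, with a median of -0.096, against 26.1% and 42.9% of all genes. Quantile normalization gave the same counts and a median of -0.095, against 27.9% and 40.4%. After removal of the GC trend 2 were higher (Zbtb7a and Zbtb16), 2 were lower (Zbtb33 and Zbtb14) and 9 did not pass, with a median of 0.029. These 15.4% in each direction stood beside 29.2% higher and 31.0% lower of all genes.

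Zbtb7a, a BTB repressor of fetal globin genes that also acts in lymphoid development, had the largest increase of all 93 members. It was 8.21 to 8.84 (median 8.50) in sham and 9.05 to 9.66 (median 9.29) in HF-HI, and the groups did not overlap. The difference was 0.81 ± 0.085 (SE, adjusted p = 3.46e-08). With an exonic GC content of 58.1%, 0.24 of it followed GC content, and 0.58 remained (adjusted p = 2.59e-07), still without overlap. Zbtb16 (PLZF), a repressor needed in germline stem cells and innate-like lymphocytes, was 8.10 to 8.61 (median 8.38) in sham and 8.55 to 9.23 (median 8.93) in HF-HI. The ranges overlapped at their edges, and the difference was 0.55 ± 0.077 (SE, adjusted p = 1.64e-06), with 0.42 after removal.

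Zbtb33 (Kaiso), Zbtb4 and Zbtb38 form the group of BTB proteins that bind methylated CpG. Zbtb33 was 8.81 to 9.37 (median 9.02) in sham mice and 8.65 to 8.92 (median 8.81) in HF-HI, a difference of -0.27 ± 0.056 (SE, adjusted p = 2.59e-04), and -0.13 after removal. With GC and length trends removed it was -0.096 and did not pass. Zbtb4 was higher by 0.17 ± 0.048 (adjusted p = 0.00344), but its 0.058 after removal did not pass (adjusted p = 0.184). Zbtb38 differed by 0.013 (95% interval -0.039 to 0.064) and did not pass. Zbtb18, a repressor required for cortical neuron development, was 12.41 to 12.80 (median 12.57) in sham mice and 12.45 to 12.79 (median 12.58) in HF-HI. Its difference was 0.028 (95% interval -0.068 to 0.12, adjusted p = 0.604). Zbtb20, a regulator of hippocampal and astrocyte development, gave 0.034 (95% interval -0.083 to 0.15, adjusted p = 0.609). The sign of these last differences turned with the scaling of the libraries, as it did for Zbtb38.

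Among the higher members without a BTB or KRAB-like domain, Zfp462, Zfp609, Zfp142, Zfp365 and Zfp46 rose most. Zfp462, a nuclear protein with 33 fingers that holds heterochromatin at lineage genes, was 8.97 to 9.47 (median 9.35) in sham and 9.62 to 9.99 (median 9.74) in HF-HI, without overlap. Its difference was 0.50 ± 0.058 (SE, adjusted p = 1.89e-07), and nearly all of it (0.48) remained after removal. Zfp609, which acts with Nipbl and Integrator in migrating cortical neurons, was 8.46 to 9.21 (median 8.89) in sham and 9.15 to 9.64 (median 9.35) in HF-HI. Its groups overlapped slightly, with a difference of 0.49 ± 0.081 (adjusted p = 1.57e-05) and 0.41 after removal. Zfp142, with 36 fingers the most of any member, was 8.26 to 8.75 (median 8.47) in sham and 8.79 to 9.12 (median 8.94) in HF-HI. It did not overlap, at 0.47 ± 0.051 (adjusted p = 6.89e-08), and 0.41 remained.

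**Figure D5:**
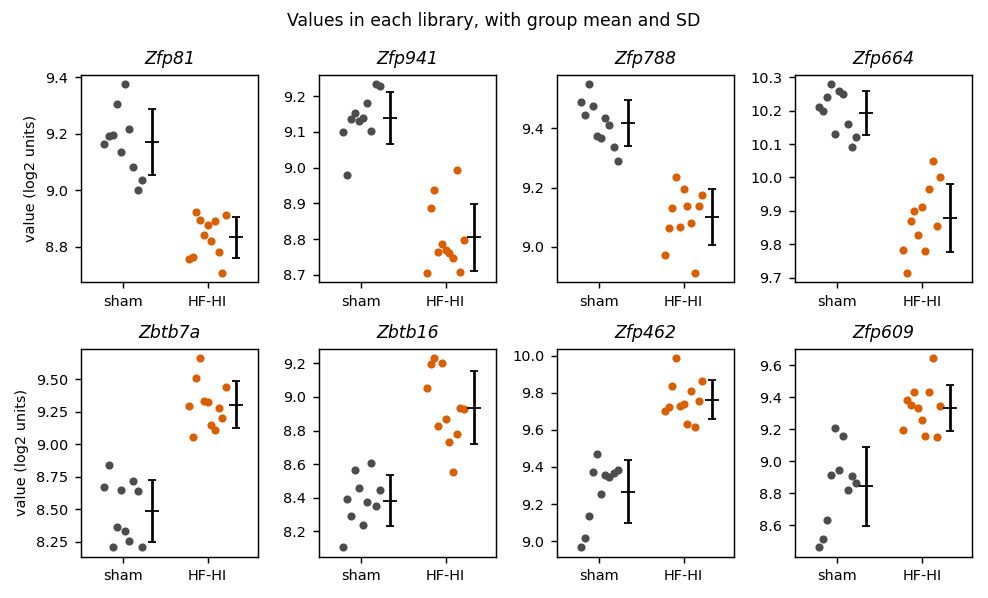
Value in each library (points, log2 units, y axis) for sham and HF-HI mice, with group mean and SD beside them, for the 4 members with the largest decreases (top row) and the 4 with the largest increases (bottom row). Zfp81, Zfp788, Zfp664, Zfp462 and Zbtb7a show no overlap of the groups, and each panel has its own y range.

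Zfp365, a partner of Disc1 in oligodendrocyte and neurite development, was 12.04 to 12.56 (median 12.24) in sham and 12.60 to 12.83 (median 12.73) in HF-HI. Each HF-HI mouse lay above each sham mouse. Its difference of 0.45 ± 0.051 (SE, adjusted p = 1.17e-07) hardly followed GC content, with 0.45 after removal. Zfp652, a repressor that works with the corepressor Cbfa2t3, was 9.59 to 9.78 (median 9.65) in sham and 9.94 to 10.25 (median 10) in HF-HI, again apart, with a difference of 0.35 ± 0.039 (adjusted p = 8.73e-08) and 0.29 after removal. Zfp46 gave 0.43 ± 0.073 and 0.34 after removal, with overlapping groups. Zkscan16 gave 0.26 ± 0.080 (adjusted p = 0.00675), from sham values that ran widely, 8.52 to 9.34 (median 8.95), to 9.05 to 9.38 (median 9.17) in HF-HI. Sham replicates 1, 2 and 3 were its 3 lowest sham values, and without them the difference was 0.12 and did not pass. The same 3 libraries were the lowest of sham for Zfp462, Zfp609 and Zfp507, thus for 4 members (4.30%), against 5.47% of all genes. They were the highest of sham for Zkscan3 and Zfp329, thus for 2 members (2.15%), against 2.54% of all genes. Without these 3 libraries Zfp462 gave 0.40 and Zfp609 0.36, and both passed, while 52 members were lower and 17 higher. The share of all genes without these 3 libraries is not given. Zfp523, a relative of the snRNA gene activator Zfp143, rose by 0.32 ± 0.057, but at 55.6% GC its 0.14 after removal did not pass (adjusted p = 0.084).

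Zfp638, Zfp91 and Zfp292 were lower on both scales. Zfp638 (NP220), which binds nuclear matrix-associated DNA and silences unintegrated viral DNA, was 11.28 to 11.50 (median 11.37) in sham and 11.07 to 11.25 (median 11.14) in HF-HI. Its groups did not overlap, and the difference of -0.25 ± 0.032 (SE, adjusted p = 8.19e-07) became -0.11 after removal, when they overlapped. Zfp91, an E3 ubiquitin ligase of the non-canonical NF-kB pathway, was 11.25 to 11.58 (median 11.37) in sham and 11.10 to 11.19 (median 11.12) in HF-HI. It did not overlap before or after removal, with -0.25 ± 0.033 (adjusted p = 1.03e-06) and -0.18. Zfp292, an activator of growth hormone expression, gave -0.23 ± 0.035 and -0.11 after removal.

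Zfp148 and Zfp281, related factors that bind GC-rich promoter elements, were both lower in the deposited values. Zfp148 gave -0.16 ± 0.031 (SE, adjusted p = 1.28e-04) and Zfp281 -0.15 ± 0.043 (adjusted p = 0.00452). Neither passed after removal, at -0.044 (adjusted p = 0.15) and -0.071 (adjusted p = 0.131). Zfp704 stayed lower on both scales, at -0.12 and -0.14.

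Among the members that bind RNA or act outside transcription, Zfp106 was higher, at 0.10 ± 0.028 (SE, adjusted p = 0.0036) and 0.12 after removal. With libraries centred on their medians its 0.049 did not pass. Zfp207 had a mean of 10.87 ± 0.143 (SD, n = 10) in sham mice against 10.88 ± 0.105 (SD, n = 11) in HF-HI, and its difference of 0.0099 (95% interval -0.098 to 0.12) did not pass, while 0.14 after removal did (adjusted p = 0.0103). Zfp326 likewise went from 0.098 (adjusted p = 0.0604) to 0.24 (adjusted p = 3.87e-05). Both are poor in GC, at 39.6% and 38.9%. Zfp706 differed by -0.079 (95% interval -0.15 to -0.0063) and did not pass. Outside this group, Zfp536, a brain-enriched repressor of neuronal differentiation, differed by 0.092 (95% interval -0.016 to 0.20) and did not pass. Nor did Zkscan1 and Zkscan3, the latter a repressor of autophagy genes, at -0.032 (95% interval -0.089 to 0.024) and -0.036 (95% interval -0.17 to 0.097).

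The threshold divided neighbouring values. Just inside it were Zfp451, a SUMO ligase (-0.080, adjusted p = 0.0285), Zfp146 (-0.12, adjusted p = 0.0272) and Zfp512b (0.13, adjusted p = 0.0239). Just outside it were Zfp706 (adjusted p = 0.0519), Zfp326 (adjusted p = 0.0604) and Zfp655 (-0.085, adjusted p = 0.07). These 6 differences were 0.13 or less in size. Zfp451 did not pass when sham replicate 2, 3, 6 or 10 or HF-HI replicate 4 was left out, with values from -0.074 to -0.070. Zfp146 did not pass without sham replicate 4 or 6 or HF-HI replicate 6, with values from -0.11 to -0.099. Zfp512b did not pass when libraries were centred on their medians (0.073), after quantile normalization (0.090), with relative depth as a covariate (0.11) or with the GC trend removed (-0.030). Zfp146 did not pass with the depth covariate (-0.089) or with GC and length trends removed (-0.042), nor did Zfp451 with the GC trend removed (0.016) or with both trends removed (-0.040).

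The counts for genes of the partners of these proteins stand beside the 32.6% higher and 33.6% lower of all genes. Of 23 genes for the KRAB corepressor machinery, 19 were in the table, of which 7 were higher and 3 lower, with a median of 0.076. With libraries centred on their medians 4 were higher and 4 lower, against 26.1% and 42.9% of all genes, with a median of 0.024. Trim28, the scaffold that KRAB domains bind, differed by 0.016 ± 0.041 (SE, adjusted p = 0.736), but by -0.19 after removal of the GC trend, which passed (adjusted p = 7.62e-04). Setdb1 gave -0.065 ± 0.037 (adjusted p = 0.129), and its cofactor Atf7ip was higher, at 0.61 ± 0.071 (adjusted p = 1.66e-07). The 3 lower genes were Morc3 (-0.22), the remodeller Smarcad1 (-0.21) and the deacetylase Hdac2 (-0.19). After removal 5 were higher and 4 lower, against 29.2% and 31.0% of all genes. Morc3 and Hdac2 were still lower, Trim28 and the methyltransferase Ehmt2 (-0.22) passed as lower only then, and Smarcad1 (-0.062) no longer passed.

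Of 13 genes for corepressors and ligase partners of BTB proteins, 9 were in the table, with 4 higher, 1 lower and a median of 0.066. With centred libraries 4 were higher and 2 lower, with a median of 0.014, against 26.1% and 42.9% of all genes. Among the higher genes as deposited were Ctbp1 (0.38 ± 0.051, SE, adjusted p = 1.45e-06), Tbl1x (0.29) and Sin3a (0.13). Cul3, the ubiquitin ligase scaffold, was lower, at -0.16 ± 0.043 (adjusted p = 0.00223), but at -0.017 after removal of the GC trend it did not pass (adjusted p = 0.602). That removal left 4 higher and 0 lower, against 29.2% and 31.0% of all genes. Of 69 other C2H2 factors outside the symbol rule, 30 were in the table, with 18 higher, 4 lower and a median of 0.16. They included the immediate early gene Egr1 (1.10 ± 0.11, adjusted p = 1.41e-08), Hivep1 (0.65), Klf13 (0.40) and the insulator protein Ctcf (0.25). The lower ones were Zfx (-0.27), Sp3 (-0.22), Klf6 and Zhx1. With centred libraries 15 of the 30 were higher and 6 lower, with a median of 0.11, against 26.1% and 42.9% of all genes. Quantile normalization gave 16 and 4, against 27.9% and 40.4%. These lists had a median exonic GC of 47.5%, 48.2% and 47.8%, above the members' 43.1%. After removal of the trend the other C2H2 factors still showed 17 higher and 2 lower, against 29.2% and 31.0% of all genes.

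Markers of the cell types of the cortex were counted in the same way, beside the 32.6% higher and 33.6% lower of all genes. Those shares were 26.1% and 42.9% with centred libraries and 27.9% and 40.4% after quantile normalization. With the GC trend removed they were 29.2% and 31.0%. All 10 neuronal markers were in the table. Of these, 7 were higher and 0 lower, or 5 and 1 with centred libraries. The excitatory marker Slc17a7 gave 0.90 and Rbfox3 0.83, while the inhibitory markers Gad1 (-0.097) and Gad2 (-0.010) did not pass. The mean value of the 10 markers was 11.8 to 12.0 in sham and 12.2 to 12.3 in HF-HI. The 9 astrocyte markers gave 5 higher and 2 lower, or 3 higher and 4 lower after quantile normalization, with a mean value of 11.3 to 11.6 in sham and 11.4 to 11.6 in HF-HI. The 8 oligodendrocyte markers gave 2 higher and 0 lower, or 2 and 2 with centred libraries, with quantile normalization or with the GC trend removed, at 11.3 to 12.0 in sham and 11.2 to 12.0 in HF-HI. Of 9 microglial markers 3 were in the table, with 1 higher and 2 lower, at 9.36 to 9.46 in sham and 9.07 to 9.38 in HF-HI. With centred libraries, with quantile normalization or with the GC trend removed, 0 were higher and 2 lower. Of 4 oligodendrocyte precursor markers 2 were in the table, with 1 higher and 0 lower. Centred libraries and quantile normalization each gave 1 and 1 for them, and removal of the GC trend gave 0 and 1. Of 6 endothelial markers 3 were in the table, with 1 higher and 1 lower. Of 5 genes of striatum or thalamus 3 were in the table, with a mean value of 9.55 to 9.91 in sham and 8.91 to 10.2 in HF-HI. Drd1 was lower (-0.35, adjusted p = 0.00694), and with the GC trend removed so was Adora2a (-0.35, adjusted p = 0.0111), which as deposited was -0.082 and did not pass. Relative depth of the libraries, from the spacing of the values, was 0.580 to 1.26 in sham and 0.548 to 1.64 in HF-HI. With relative depth as a covariate 55 members were lower and 18 higher, and the share of all genes is not given for it. The part of the cell type markers in the differences of the zinc finger genes was not tested.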

How the data were processed

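Cortical total RNA libraries of 10 sham and 11 HF-HI animals were assigned to groups by their labels. The authors aligned reads to mm10 with STAR, counted them per transcript with eXpress, normalized them with DESeq2 and deposited variance-stabilized values on a log2 scale, one per gene and library. Read counts were not used here, so total depth is unknown, and the variation between animals limits the precision. Reads of near-identical copies may have been divided in counting. Symbols, positions, exons and transcripts came from GENCODE vM21 (GRCm38), which gave a symbol to 5541 of 5544 genes and an exonic GC content to 5539. Promoter sequences were those of RefSeq.

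Groups were compared over all genes with limma 3.58.1 in R 4.3.3 (two-sided, eBayes with its trend option, and p adjusted by Benjamini-Hochberg, called under 0.05). The GC trend was a lowess curve (span 0.3) through each library's deviations from the gene means. The fit was tested on simulated data, and the outcome is not given here. Other steps used Python 3.11.15, pandas 2.3.3 and scipy 1.17.1. A finger was a translated pattern of a cysteine pair 2 or 4 residues apart, 12 residues, and a histidine pair 3 to 5 apart. The limit of 8 of 15 residues for a KRAB-like stretch was set after the matches were seen.

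The members, lists, tests and named genes were chosen with earlier results of these data known. Genes named with values were the 10 largest increases and decreases, the 3 members on each side of the threshold, and members with known roles in brain, in methyl-CpG binding or with RNA. Zfp12, Zfp60, Zfp157, Zfp180, Zfp236, Zfp251, Zfp280d, Zfp651, Zfp740, Zfp770 and Zbtb41 were named after their values were seen. Alternatives were another threshold, a minimum difference, eBayes without a trend, the Wilcoxon test, other scalings, a filter on low values, a replicate block, a depth covariate, other GC corrections and each library left out, with sham replicates 1 to 3 left out together added later.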

Additional observations from a re-analysis of the deposited data

Results flagged for a closer look

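In 2 of 44 results tested, 1 sham mouse lay far from the other 9. Zfp941 was 8.979 in sham replicate 2, against 9.1 to 9.234 in the other sham mice, and Zkscan1 was 10.28 in the same mouse, against 10.37 to 10.47. The gap to the nearest mouse, as a share of the group's range, was 0.4765 and 0.4763, above Dixon's limit for 10 samples. Chance passes this limit in about 1 in 20 groups. The HF-HI group, with 11 mice, was not tested. Zfp941 stayed lower and Zkscan1 did not pass when this mouse was left out.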

How the results depend on the processing

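The direction of the member counts held under all alternatives run, with more members lower than higher, except that a minimum absolute difference of 0.25 after removal of the GC trend left 9 higher and 4 lower. In the deposited values that minimum left 10 higher and 19 lower. Leaving out the quartile of genes with the lowest mean values, which kept 55 members, gave 10 higher and 35 lower, and 7 and 23 after removal of the GC trend. The median difference of the members was -0.189 with libraries centred on their medians, -0.179 after quantile normalization, -0.063 with the GC trend removed, -0.0642 with GC and length trends removed, and -0.0582 with the GC trend removed and a replicate block. With each library left out in turn, 17 to 19 members were higher and 54 to 58 lower, with medians from -0.149 to -0.126. After removal of the GC trend these were 14 to 18, 37 to 41 and -0.0704 to -0.0528. Removal by GC content of the longest protein-coding transcript gave 21 members higher and 36 lower, with a median of -0.0478. A lowess span of 0.6 gave 15, 39 and -0.0626. Shares of all genes stand beside the deposited values and the GC-removed values, with and without the minimum, and beside centred and quantile-normalized libraries. They are not given for the other settings, so the member counts there cannot be set beside a share of all genes.

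The replicate numbers did not pair the samples: correlations of the 10 pairs ran from -0.31 to 0.364, and 0 sham libraries correlated best with their own number. With the replicate block 17 members were higher and 55 lower, and 70 of the 73 calls were kept. The 3 lost were those of Zfp146 (-0.113), Zfp451 (-0.0805) and Zfp512b (0.122).

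The sign of some differences turned with the setting, in members that did not pass and in some that did. Centred libraries gave -0.0236 for Zbtb18, -0.0181 for Zbtb20, -0.0392 for Zbtb38 and -0.042 for Zfp207. Quantile normalization gave -0.00688 for Zbtb18, -0.00773 for Zbtb38 and -0.000674 for Zfp207. Zfp207 was -0.000339 with the replicate block and -0.0166 to 0.036 with 1 library left out, lowest without sham replicate 2. With the GC trend removed, Zbtb41 and Zfp280d, which had passed as lower, were 0.0555 and 0.024 and did not pass. With that removal Zfp451 was 0.0163, Zfp512b -0.0305, Zfp536 -0.00263, Zfp655 0.0261 and Zkscan1 0.03. Adding the replicate block to that removal gave 0.0206, -0.041, -0.00389, 0.0258 and 0.0262 in the same order, and 0.0108 for Zkscan3. With GC and length trends removed, Zbtb38 was -0.0322, Zfp512b -0.0837, Zfp536 -0.0637, Zfp655 0.0408, Zfp706 0.00166 and Zkscan1 0.00411, and Zfp512b passed in the other direction. The causes were not tested. Leaving out sham replicates 1, 2 and 3 together, an alternative chosen after seeing the data, gave 17 members higher and 52 lower with a median of -0.124, and 11, 35 and -0.0416 with the GC trend removed. The call of Zkscan16 (0.118) was lost, as were those of Zfp146 (-0.124), Zfp451 (-0.0501) and Zfp512b (0.124), Zfp536 (0.134) passed, and the differences of Zbtb18 (-0.003), Zfp207 (-0.0291) and Zkscan3 (0.0541), none of which passed, turned sign. Zfp326 passed without sham replicate 4, 5 or 7 or HF-HI replicate 5, Zfp536 without sham replicate 2 or HF-HI replicate 9, Zfp655 without sham replicate 8, 9 or 10, and Zfp706 without sham replicate 5, 7 or 10 or HF-HI replicate 11.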
